A study of Homo sapiens with 14 samples.

Results

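The proteasome genes were examined in the human cell line Kasumi-1, grown from an acute myeloid leukaemia and bearing the fusion AML1-ETO (also written RUNX1-RUNX1T1), with and without an siRNA against that fusion. They were chosen by name: every probe set whose only platform gene symbol began with PSMA, PSMB, PSMC, PSMD, PSME, PSMF or PSMG and a digit. This gave 65 probe sets for 41 of the 11963 genes on the array, and the brightest probe set stood for each gene. After a filter that kept the 60% of genes with the highest mean signal, 40 of the 41 were among the 7178 genes tested. PSMB8 did not pass it. PSMA6 and PSME2 shared their probe sets with the symbols of other genes and were not analysed here. PSMC5, PSMD7 and PSMD13, whose names would fit the rule, were not among the 41 genes.

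RNA was measured on 14 single-colour arrays at 96 h, with transfected and untransfected cells sampled at the same time. The AML1-ETO siRNA had 3 arrays with a lipid reagent (siLentFect) and 3 with Amaxa nucleofection, which is an electrical method. The control was an siRNA to firefly luciferase, with 3 lipid and 2 nucleofection arrays. A further 2 arrays came from untransfected cells and 1 from cells nucleofected with no siRNA. Lipid transfections used 240 nM of siRNA and nucleofections 1.5 µM, and the effects of dose and method cannot be told apart. All groups used this single cell line, and each target had 1 siRNA duplex. The labels did not say whether replicates were separate cultures, and p-values measure only how far these arrays spread, in part perhaps technically.

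The 26S proteasome is the protease that degrades ubiquitin-tagged proteins. Its barrel-shaped 20S core is built from rings of alpha subunits, which form the gate, and rings of beta subunits, which include the protease sites. The 19S cap binds the tagged protein, removes the ubiquitin, and unfolds and threads the chain with a ring of ATPases. Under interferon gamma, 3 alternative catalytic beta subunits (PSMB8, PSMB9 and PSMB10) form the immunoproteasome, which favours peptides for MHC class I. Blood cancers are treated with proteasome inhibitors, and PSMB5 is the main target of one of them, bortezomib.

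The deposited values are MAS5 signal intensities with the same mean, 138.5, on every array. Values below 20 were raised to 20, differences are on the log2 scale, and a gene was called at a limma adjusted p below 0.05. RUNX1T1, the fusion partner on the array, read 704 ± 83.6 (SD, n = 2) on the control nucleofection arrays and 299 ± 41.7 (SD, n = 3) where the fusion was targeted. Lipid arrays read 556 ± 14.4 (SD, n = 3) for the control and 443 ± 52.9 (SD, n = 3) for the targeted cells. Its log2 difference was −1.24 (adjusted p = 0.00288) by nucleofection and −0.34 (adjusted p = 0.999) by lipid. Of the Kasumi-1 identity markers, KIT read 1617 to 2297 and MPO 4784 to 7572, while CD34 read 29.1 to 79.5 and ANPEP was below 20 on all arrays. Of 20 markers of other cell types, 18 were on the array, and 3 (KRT19, CDH1 and CDH5) were below 20 on all arrays. Another 5 were above 20 on all arrays: EPCAM (71.3 to 267), COL1A1 (33.0 to 111), CD3E (30.9 to 84.7), HBB (39.5 to 70.4) and DCN (32.6 to 67.3). The summed signal of the 18 markers was 540 to 563 on the AML1-ETO nucleofection arrays and 580 to 584 with luciferase nucleofection. It was 626 to 761 with lipid and 676 to 684 untransfected. The part of these cell types in the results was not tested.

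Promoter sequences are shown for members that the results below turn on. PSME3, PSMD10 and PSME4 were higher with lipid than with nucleofection, PSMB4 was lower, and PSMB9 is a catalytic subunit of the immunoproteasome. Each is the RefSeq sequence of build GRCh38.p14 from 250 bases before to 50 bases after the gene's start, in the direction of transcription. They lie at chr17:42833147-42833446, plus strand (PSME3), chrX:108091493-108091792, minus strand (PSMD10), chr2:53970944-53971243, minus strand (PSME4), chr1:151399323-151399622, plus strand (PSMB4) and chr6:32853942-32854241, plus strand (PSMB9). Capitals mark matches on either strand to 4 motifs. TGACNNNGC is a core of the antioxidant response element, the kind of site NFE2L1 uses at proteasome genes. The CCAAT box and the gamma-activated site of STAT factors, TTCNNNGAA, are the next 2. CCGGAAG is the core of an ETS-type site.
PSME3: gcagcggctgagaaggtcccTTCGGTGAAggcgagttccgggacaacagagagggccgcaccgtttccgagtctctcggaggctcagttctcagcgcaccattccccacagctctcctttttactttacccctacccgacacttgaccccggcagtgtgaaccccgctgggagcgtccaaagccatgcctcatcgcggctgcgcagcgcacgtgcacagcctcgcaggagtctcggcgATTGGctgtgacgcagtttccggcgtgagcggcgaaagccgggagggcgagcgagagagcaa
PSMD10: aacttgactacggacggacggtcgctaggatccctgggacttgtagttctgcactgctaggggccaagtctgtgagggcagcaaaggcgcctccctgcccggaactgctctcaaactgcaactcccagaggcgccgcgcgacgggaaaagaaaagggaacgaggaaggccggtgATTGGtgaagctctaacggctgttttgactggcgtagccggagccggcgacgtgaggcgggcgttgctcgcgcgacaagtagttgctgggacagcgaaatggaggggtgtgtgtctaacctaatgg
PSME4: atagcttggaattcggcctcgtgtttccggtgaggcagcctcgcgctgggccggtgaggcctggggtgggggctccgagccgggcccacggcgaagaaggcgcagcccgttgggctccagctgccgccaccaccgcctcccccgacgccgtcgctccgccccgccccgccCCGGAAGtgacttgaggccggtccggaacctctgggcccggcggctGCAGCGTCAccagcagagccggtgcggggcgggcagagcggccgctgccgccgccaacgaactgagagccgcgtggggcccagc
PSMB4: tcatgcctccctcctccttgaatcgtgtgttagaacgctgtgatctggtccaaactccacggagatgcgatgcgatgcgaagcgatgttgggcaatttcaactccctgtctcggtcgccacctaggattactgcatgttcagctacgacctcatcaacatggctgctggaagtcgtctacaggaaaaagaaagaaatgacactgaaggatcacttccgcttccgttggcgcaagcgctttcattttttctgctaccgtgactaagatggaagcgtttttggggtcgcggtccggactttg
PSMB9: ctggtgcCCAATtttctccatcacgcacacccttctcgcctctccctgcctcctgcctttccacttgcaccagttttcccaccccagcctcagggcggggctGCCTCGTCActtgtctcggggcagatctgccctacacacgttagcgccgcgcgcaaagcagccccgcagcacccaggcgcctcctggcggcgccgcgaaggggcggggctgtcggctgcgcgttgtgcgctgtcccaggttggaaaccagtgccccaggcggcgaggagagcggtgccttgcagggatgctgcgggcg
PSME3 had a gamma-activated site match and a CCAAT box, PSMD10 a CCAAT box, PSME4 an antioxidant response core and an ETS-type match, and PSMB9 an antioxidant response core and a CCAAT box. PSMB4 had no match to these 4 motifs in this window. The 39 members other than PSMC3IP and PSME3IP1 were looked up in the promoter table, and 34 were found. The antioxidant response core was present in 12 of the 34 (35.3%) against 13.6% of 27305 promoters of the same length. The CCAAT box was present in 16 (47.1%) against 35.7%, the ETS-type core in 9 (26.5%) against 10.7%, and the gamma-activated site in 4 (11.8%) against 7.88%. These are counts of letters and carry no test.

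Knockdown of the fusion was first compared with the control siRNA, over both methods together (their mean) and by each method alone. No tested core or cap subunit of the 26S proteasome was called in any of these comparisons. Within nucleofection the subunit signals lay mostly on one side: 26 of the 27 tested core and cap subunits had a log2 difference below 0. Of all genes tested, 36.8% were above 0. The subunits' median was −0.30 against −0.11 over all genes tested. The 27 are those that the name rule took in, which left out the cap subunits SEM1 and ADRM1. Their differences by nucleofection were 0.19 and −0.08, neither of them called. The core subunit PSMA6 and the cap subunits PSMC5, PSMD7 and PSMD13 are also not among the 27. In 21 of the 27 subunits (77.8%), all 3 AML1-ETO nucleofection arrays were below both luciferase nucleofection arrays, against 25.3% of all genes tested. With quantile normalization or with arrays centred on their medians, this held for 18 of 27 (66.7%), against 19.8% and 19.2% of all genes. The subunits were read on the same 5 arrays and are not independent of each other. They were bright, each above at least 74.7% of genes on the array. The shares over all genes were not matched for brightness. In these bulk RNA samples, fewer cells of a type and less RNA per cell cannot be told apart. The log2 ratio of GAPDH 3′ to 5′ control probe sets, a measure of RNA quality, separated the same groups without overlap: it was −0.18, −0.13 and −0.11 on the AML1-ETO nucleofection arrays and 0.25 and 0.03 on the luciferase nucleofection arrays. With this ratio as a covariate, 26 of the 27 subunits were below 0 by nucleofection, and 0 members were called. The subunits' median was then −0.36 against −0.26 over all genes, so the median of all genes also moved down, from −0.11. The share of all genes below 0 with the covariate was not counted.

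The position of the 27 subunits on each array was read as the median distance from each gene's own mean over the 14 arrays. It was −0.32, −0.26 and −0.33 on the AML1-ETO nucleofection arrays. It was 0.04 and −0.02 on the luciferase nucleofection arrays, 0.01 without siRNA, −0.02, 0.15 and 0.24 with luciferase lipid, 0.02, −0.03 and 0.23 with AML1-ETO lipid, and 0.18 and 0.01 in untransfected cells. The 3 AML1-ETO nucleofection arrays were the lowest of the 14 and did not overlap the rest. Over all genes tested the medians of the same 3 arrays were −0.17, −0.04 and −0.17. After quantile normalization the subunits' medians on these arrays were −0.15 to −0.10, against −0.08 to 0.16 on the other 11. After median centring the values were −0.21 to −0.16, against −0.08 to 0.13.

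**Figure D1:**
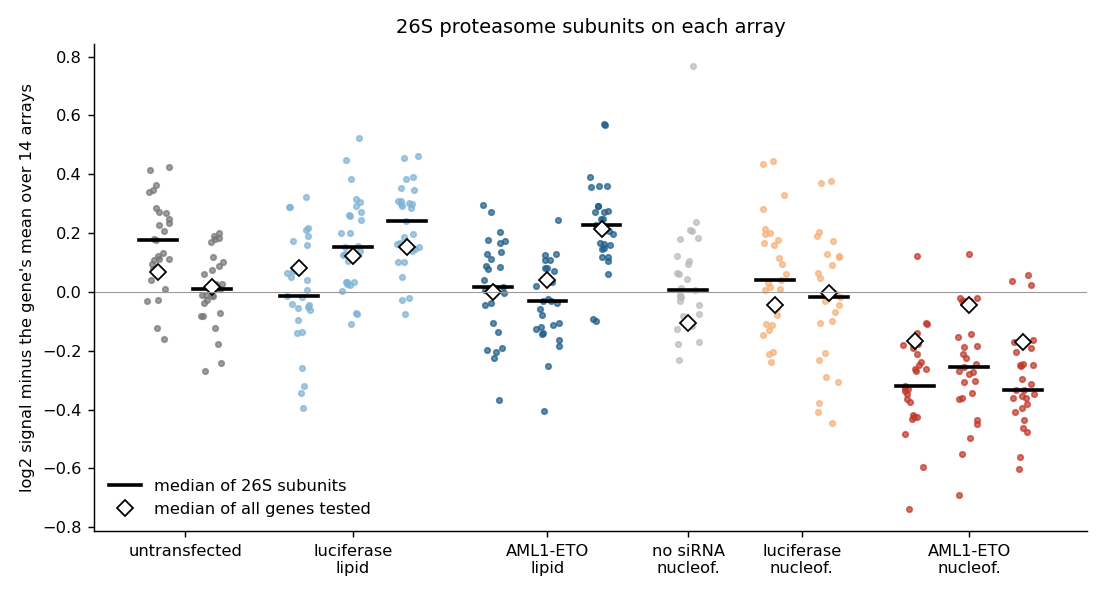
The y axis gives the log2 signal of each of the 27 tested core and cap subunits minus its mean over 14 arrays, by array and group. Dots are subunits, black bars their median and diamonds the median of all 7178 genes tested; the bars of the 3 AML1-ETO nucleofection arrays lie at −0.32, −0.26 and −0.33, below those of all other arrays.

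Among the 5 groups with more than 1 array, AML1-ETO nucleofection had the lowest mean for 24 of the 27 subunits (88.9%), against 41.8% of all genes. The exceptions were PSMB3, PSMB4 and PSMD4. This count depended on scaling and was 15 of 27 (55.6%, all genes 26%) after quantile normalization and 20 of 27 (74.1%, all genes 24.9%) after centring. As the mean of both methods, 26 of 27 subunits were below 0, while 35.1% of all genes were above 0. The subunits' median in this mean was −0.18 against −0.07 over all genes. There 0 of the 27 were called by limma and 6 had an unadjusted p below 0.05 (14.4% of all genes did), and their values ran from −0.33 to 0.03. Of all 40 members, 1 (PSME3IP1) was called, against 1.66% of all genes. By lipid alone, 0 of 40 members were called, against 0.125% of all genes, and 1 member (PSMA2) had an unadjusted p below 0.05 (4.53% of all genes did). The subunits' median by lipid was −0.06, with 17 of 27 below 0, against −0.03 over all genes. Of all genes, 42.9% were above 0 by lipid. By nucleofection, 1 of 40 members (PSME3IP1) was called, against 2.62% of all genes, and 9 of the 27 subunits had an unadjusted p below 0.05 (18.9% of all genes did). The difference between the methods in the knockdown effect was tested as an interaction, which called 0 of 40 members, against 0.0557% of all genes, with 5 at an unadjusted p below 0.05, a share of 12.5% that is near the 10.8% of all genes. Its median over the subunits was 0.24, lipid minus nucleofection, against 0.06 over all genes, of which 57.3% were above 0.

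**Figure D2:**
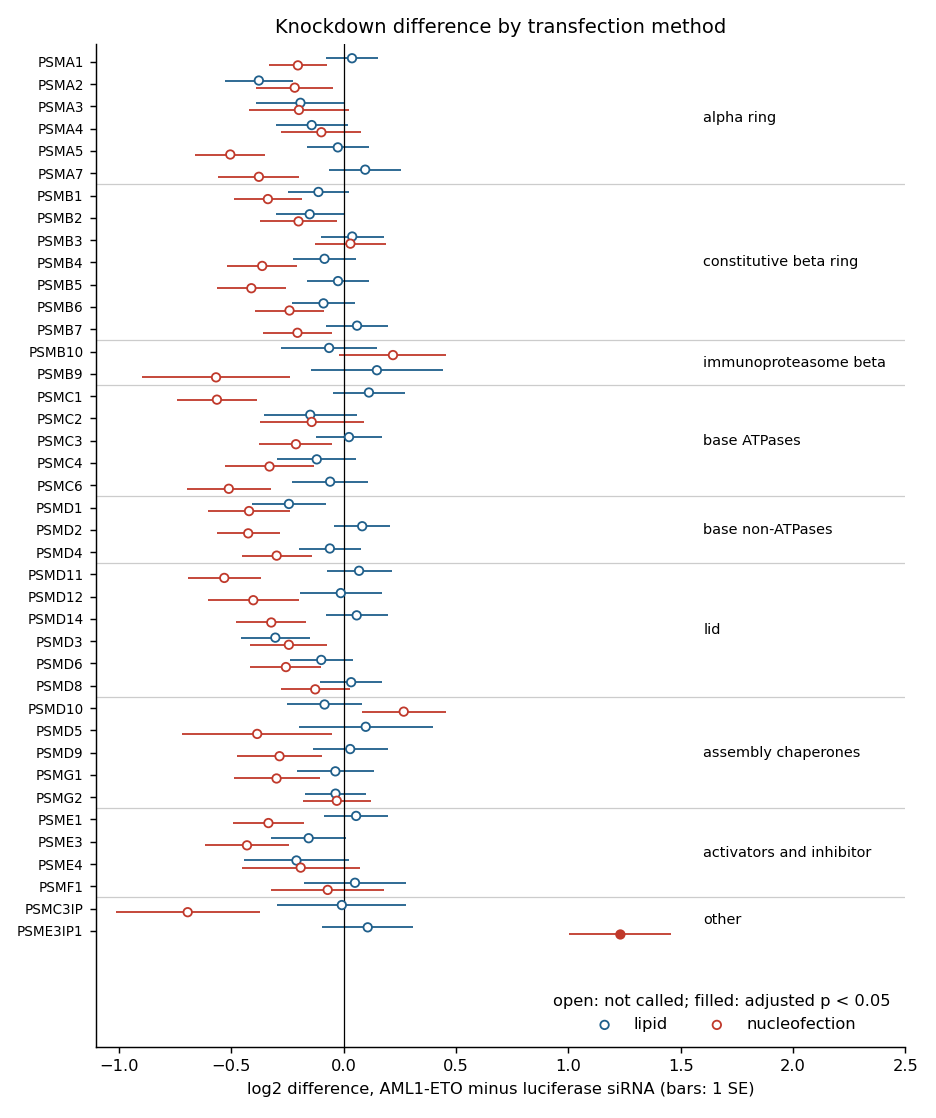
The x axis gives the log2 difference, AML1-ETO minus luciferase siRNA, of each of the 40 tested members by lipid (blue) and by nucleofection (red), with bars of 1 SE, in order of role. Filled points have an adjusted p below 0.05, which holds for PSME3IP1 by nucleofection alone. Of the 40 nucleofection points 36 lie below 0, against 24 of the 40 lipid points. Of all genes tested, 36.8% were above 0 by nucleofection and 42.9% by lipid.

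In the alpha ring of the core, 6 members were tested and none was called for the knockdown, with 2 at an unadjusted p below 0.05 in limma's mean of both methods. PSMA2 had the smallest p of these. Its signal read 678 and 607 on the luciferase nucleofection arrays and 531, 577 and 548 on the AML1-ETO nucleofection arrays. By lipid the signals were 906, 1066 and 948 with luciferase siRNA and 643, 759 and 856 with AML1-ETO siRNA. Untransfected cells gave 995 and 774 and the array without siRNA 749. Within each method every AML1-ETO array was below every luciferase array, which was so for no other member (1 of 40, against 1.38% of all genes tested). The log2 difference was −0.30 (95% interval −0.54 to −0.05, adjusted p = 0.261). PSMA2 rose with lipid relative to nucleofection by 0.52 (SE 0.11, adjusted p = 0.00691).

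PSMA7, another alpha ring subunit, read 636 and 486 on the luciferase nucleofection arrays and 469.7, 391 and 428 on the AML1-ETO nucleofection arrays. Its lipid signals were 607, 781 and 828 with luciferase siRNA and 775, 748 and 828 with AML1-ETO siRNA. Untransfected cells gave 812 and 715 and the array without siRNA 599. The AML1-ETO nucleofection arrays were the lowest 3, while luciferase nucleofection replicate 1 lay above luciferase lipid replicate 1. The gene was higher with lipid than with nucleofection by 0.63 (SE 0.12, adjusted p = 0.00328), a 1.55-fold difference, and its knockdown difference by nucleofection was −0.38 (adjusted p = 0.282). PSMA3 was also called higher with lipid, by 0.51 (SE 0.15, adjusted p = 0.0243), a call lost under 9 of 24 alternative settings. Of the 3 that were not called, PSMA5 had the smallest p for the knockdown by nucleofection within the ring: it read 401 and 378 on the luciferase nucleofection arrays and 287, 287 and 251 on the AML1-ETO nucleofection arrays, a difference of −0.50 (adjusted p = 0.111). Its arrays did not overlap between the siRNAs there, and by lipid the difference was −0.03. PSMA5 was singled out after its values were seen.

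The constitutive beta ring holds the 3 protease sites of the standard proteasome. All 7 of its genes were tested and none was called for the knockdown, with 1 (PSMB1) at an unadjusted p below 0.05 in the mean of both methods. PSMB5, the chymotrypsin-like subunit, read 381 and 347 on the luciferase nucleofection arrays and 262, 285 and 274 on the AML1-ETO nucleofection arrays. By lipid it read 362, 391 and 429.5 with luciferase siRNA and 395, 345 and 425 with AML1-ETO siRNA. Untransfected cells gave 406 and 349 and the array without siRNA 333. The 3 AML1-ETO nucleofection arrays were the lowest of the 14, the array without siRNA came next, and the remaining groups overlapped. The knockdown difference by nucleofection was −0.41 (95% interval −0.74 to −0.08, adjusted p = 0.174), and by lipid it was −0.02 (−0.32 to 0.27).

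PSMB6, the caspase-like subunit, read 195 and 179.8 on the luciferase nucleofection arrays and 139.8, 155 and 185 on the AML1-ETO nucleofection arrays. The lipid arrays gave 238, 253 and 275 with luciferase siRNA and 238, 229.9 and 251 with AML1-ETO siRNA. Untransfected cells gave 255 and 238 and the array without siRNA 179.7. Every lipid or untransfected array was above every nucleofected array, including the one without siRNA. PSMB7, the trypsin-like subunit, read 486 and 490.2 on the luciferase nucleofection arrays and 421, 426 and 423 on the AML1-ETO nucleofection arrays. Its lipid arrays gave 511, 603 and 648 with luciferase siRNA and 604, 556 and 674 with AML1-ETO siRNA. Untransfected cells gave 595 and 521 and the array without siRNA 481. PSMB7 also had all nucleofected arrays below all lipid and untransfected arrays. The 3 catalytic genes were called higher with lipid than with nucleofection, PSMB6 by 0.52 (SE 0.10, adjusted p = 0.00427), PSMB7 by 0.39 (SE 0.10, adjusted p = 0.0161) and PSMB5 by 0.31 (SE 0.10, adjusted p = 0.0442). Of all genes tested, 22% were called higher with lipid. After quantile normalization none of the 3 was called. Of 24 alternative settings, the call was lost under 16 for PSMB5, 4 for PSMB7 and 2 for PSMB6.

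**Figure D3:**
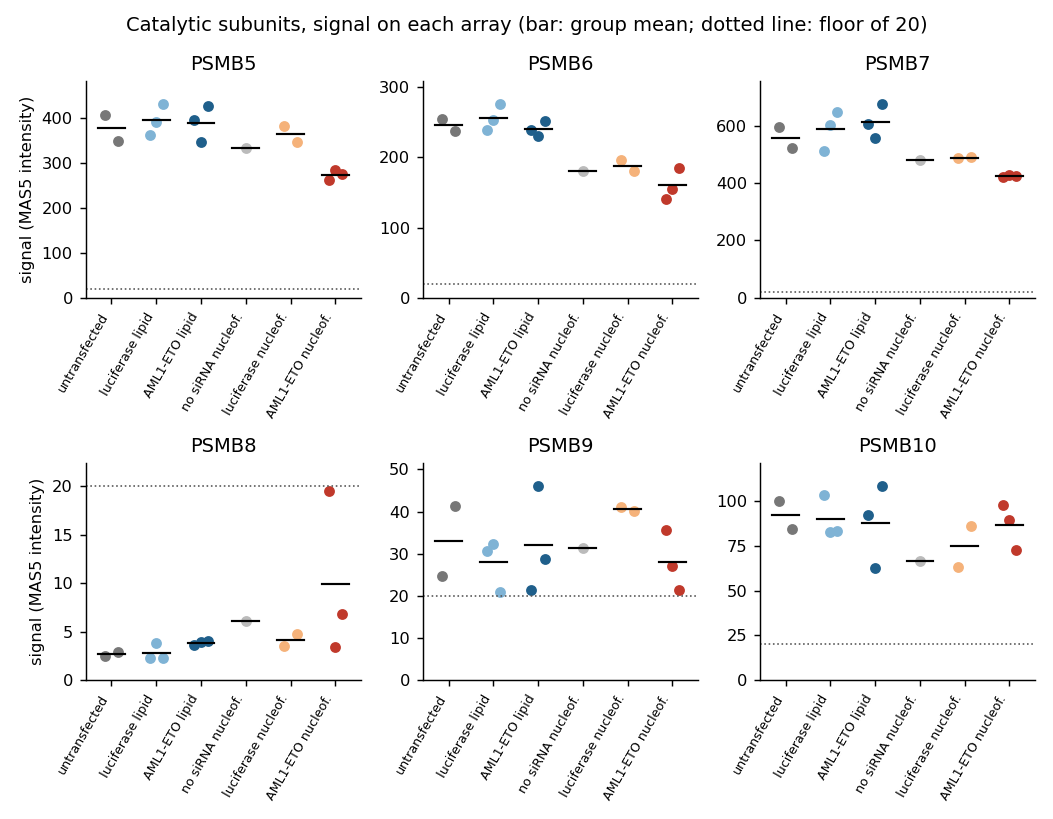
Signal (MAS5 intensity, linear axis from 0) of the 6 catalytic subunits on each of the 14 arrays, with bars at group means and a dotted line at the floor of 20. The constitutive genes PSMB5, PSMB6 and PSMB7 are lowest with AML1-ETO nucleofection, at means of 274, 159.7 and 423; PSMB8 stays below the floor on all arrays.

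The other beta subunits carry no protease site in the mature ring. PSMB1, which had the ring's smallest p for the knockdown, read 1002 and 859 on the luciferase nucleofection arrays and 738, 777 and 691 on the AML1-ETO nucleofection arrays. By lipid the values were 931, 968 and 975 with luciferase siRNA and 823, 851 and 995 with AML1-ETO siRNA. Untransfected cells gave 1068 and 943 and the array without siRNA 876. The AML1-ETO nucleofection arrays were again the lowest 3. The difference was −0.22 (95% interval −0.44 to −0.01, adjusted p = 0.335) as the mean of both methods. PSMB3 was the exception among the 27 subunits, with a knockdown difference of 0.03 (95% interval −0.19 to 0.26).

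The immunoproteasome subunits were dim. PSMB8 read 2.26 to 19.5 over the 14 arrays, below the floor on each, with 3.51 and 4.73 with luciferase nucleofection and 19.5, 3.37 and 6.87 with AML1-ETO nucleofection. No fold is given for it. PSMB9 read 41.1 and 40.2 on the luciferase nucleofection arrays and 35.6, 27.1 and 21.4 on the AML1-ETO nucleofection arrays. Its lipid signals were 30.7, 32.2 and 21.0 with luciferase siRNA and 21.5, 46.0 and 28.7 with AML1-ETO siRNA. Untransfected cells gave 24.7 and 41.4 and the array without siRNA 31.4. Within nucleofection the AML1-ETO arrays lay below the luciferase arrays, but they overlapped every other group. The difference there was −0.57 (95% interval −1.28 to 0.14, adjusted p = 0.377), an interval that includes 0. PSMB10 read 63.3 and 86.0 on the luciferase nucleofection arrays and 97.7, 89.3 and 72.7 on the AML1-ETO nucleofection arrays. By lipid it gave 103, 82.6 and 83.1 with luciferase siRNA and 92.0, 62.4 and 108 with AML1-ETO siRNA. Untransfected cells gave 99.9 and 84.3 and the array without siRNA 66.3. All groups of PSMB10 with more than 1 array overlapped one another in part, and its knockdown difference was 0.08 (95% interval −0.27 to 0.42). Neither PSMB9 nor PSMB10 was called in any of the 9 comparisons.

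The base of the cap, next to the core, carries the ring of ATPases (PSMC genes) and non-ATPase subunits. Of the latter 3 were members, and ADRM1 lay outside the name rule. The ATPase PSMC5 was not among the genes found. Of the 5 ATPases and 3 non-ATPases tested as members, none was called for the knockdown. Of these members 2 had an unadjusted p below 0.05 as the mean of both methods. PSMC6, the ATPase with the smallest p, read 134 and 131 on the luciferase nucleofection arrays and 90.1, 94.8 and 94.1 on the AML1-ETO nucleofection arrays. The lipid arrays read 113, 122 and 165 with luciferase siRNA and 127, 109 and 145 with AML1-ETO siRNA. Untransfected cells gave 147 and 121 and the array without siRNA 117. The 3 AML1-ETO nucleofection values lay close together and below all other arrays. By nucleofection the difference was −0.51 (adjusted p = 0.17), and by lipid it was −0.06 (adjusted p = 0.999). Of the ATPases, PSMC4 and PSMC2 were called higher with lipid than with nucleofection, by 0.52 (SE 0.13, adjusted p = 0.014) and 0.50 (SE 0.16, adjusted p = 0.035). Of 24 alternative settings, the call was lost under 4 for PSMC4 and 12 for PSMC2. ADRM1 was also called higher with lipid, by 0.39 (SE 0.10, limma adjusted p = 0.0176), and is counted with the partners below.

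PSMD1, a large scaffold of the base, read 308 and 245 on the luciferase nucleofection arrays and 205, 240.0 and 177 on the AML1-ETO nucleofection arrays. By lipid its signals were 279.9, 273 and 304 with luciferase siRNA and 215, 227 and 287 with AML1-ETO siRNA. Untransfected cells gave 252 and 243 and the array without siRNA 218. AML1-ETO arrays were low within each method, but by lipid replicate 3 overlapped the controls. As the mean of both methods PSMD1 differed by −0.33 (95% interval −0.60 to −0.07, adjusted p = 0.234), the lowest value among the 27 core and cap subunits. PSMD4, a ubiquitin receptor, ran the other way between the methods and is described with them below.

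The lid of the cap holds the deubiquitinase PSMD14 and its scaffolds. The lid subunits PSMD7 and PSMD13 were not among the genes found. Its 6 tested members included none called for the knockdown and 1 (PSMD3) at an unadjusted p below 0.05 as the mean of both methods. PSMD3, a lid scaffold, read 146 and 103 on the luciferase nucleofection arrays and 109, 95.9 and 107 on the AML1-ETO nucleofection arrays. The lipid signals were 176, 168 and 193 with luciferase siRNA and 154, 131 and 151 with AML1-ETO siRNA. Untransfected cells gave 166 and 161 and the array without siRNA 147. Luciferase nucleofection replicate 2 lay among the AML1-ETO nucleofection arrays, so the siRNAs overlapped there, whereas by lipid they did not overlap. The knockdown difference was −0.27 (adjusted p = 0.308). PSMD3 and PSMD8 were called higher with lipid, by 0.51 (SE 0.11, adjusted p = 0.00752) and 0.34 (SE 0.10, adjusted p = 0.0309). Of 24 alternative settings, the call was lost under 3 for PSMD3 and 8 for PSMD8. The remaining lid members PSMD6, PSMD11, PSMD12 and PSMD14 were not called between methods. The lid subunit SEM1, outside the name rule, was called higher with lipid and is described with the partners below.

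Assembly chaperones help to build the particle and leave it. In 0 of the 5 tested did all AML1-ETO nucleofection arrays lie below both luciferase arrays, against 25.3% of all genes, and that group had the lowest mean of the 5 groups in 2 of 5, against 41.8%. With 5 genes, neither count is read as a difference from the subunits. PSMG1, which with PSMG2 guides alpha ring assembly, read 328 and 277 on the luciferase nucleofection arrays and 226, 317 and 205 on the AML1-ETO nucleofection arrays. By lipid it read 290.1, 278 and 324 with luciferase siRNA and 267, 282 and 323 with AML1-ETO siRNA. Untransfected cells gave 266 and 284 and the array without siRNA 240.0. AML1-ETO nucleofection replicate 2 lay between the luciferase arrays while the other two were below them, and the knockdown difference was −0.17 (95% interval −0.45 to 0.11). PSMD10, or gankyrin, a chaperone of the ATPase ring, read 87.4 and 115 on the luciferase nucleofection arrays and 104, 139 and 121 on the AML1-ETO nucleofection arrays. Its lipid signals were 213, 192 and 180.4 with luciferase siRNA and 183, 162 and 209 with AML1-ETO siRNA. Untransfected cells gave 193 and 165 and the array without siRNA 109. Every nucleofected array, with or without siRNA, was below every lipid and untransfected array. PSMD10 was higher with lipid by 0.79 (SE 0.12, adjusted p = 0.00113), a 1.72-fold difference, and its knockdown difference by nucleofection was 0.27 (95% interval −0.14 to 0.67).

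The activators open the core without the ATP-driven cap, and PSMF1 is an inhibitor of the core in the test tube. PSME3, the nuclear activator PA28 gamma, read 351 and 387 on the luciferase nucleofection arrays and 234, 319 and 274 on the AML1-ETO nucleofection arrays. Its lipid arrays read 599.8, 577 and 544 with luciferase siRNA and 529.8, 415 and 621 with AML1-ETO siRNA. Untransfected cells gave 519.6 and 495 and the array without siRNA 399.5. The groups lay in steps that did not overlap: AML1-ETO nucleofection was lowest, then the luciferase and no-siRNA nucleofection arrays, then all lipid and untransfected arrays. The lipid difference was 0.77 (SE 0.13, adjusted p = 0.00127), a 1.71-fold higher signal. For the knockdown by nucleofection the difference was −0.43 (95% interval −0.84 to −0.02, adjusted p = 0.244), which was not called.

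PSME4, the activator PA200, read 167 and 129 on the luciferase nucleofection arrays and 125, 129 and 131 on the AML1-ETO nucleofection arrays. By lipid it gave 212, 285 and 258 with luciferase siRNA and 187, 174 and 310.0 with AML1-ETO siRNA. Untransfected cells gave 273 and 172 and the array without siRNA 143. All lipid and untransfected arrays were above all nucleofected arrays, and the difference between methods was 0.76 (SE 0.18, adjusted p = 0.00896). PSME1, a subunit of the interferon-induced activator PA28 alpha-beta, read 549 and 540.0 on the luciferase nucleofection arrays and 374, 492 and 437 on the AML1-ETO nucleofection arrays. The lipid values were 592, 525 and 625 with luciferase siRNA and 614, 575 and 618 with AML1-ETO siRNA. Untransfected cells gave 577 and 505 and the array without siRNA 606. AML1-ETO nucleofection was lowest without overlap, yet PSME1 was not called by nucleofection (−0.33, adjusted p = 0.274) nor between methods (0.28, adjusted p = 0.0648). PSMF1 read 116 and 161 on the luciferase nucleofection arrays and 139, 140.1 and 114 on the AML1-ETO nucleofection arrays. By lipid it read 124, 158 and 112 with luciferase siRNA and 100.0, 148 and 164 with AML1-ETO siRNA. Untransfected cells gave 119 and 82.4 and the array without siRNA 148. Its groups with more than 1 array all overlapped, and the knockdown difference was −0.01 (95% interval −0.38 to 0.36).

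**Figure D4:**
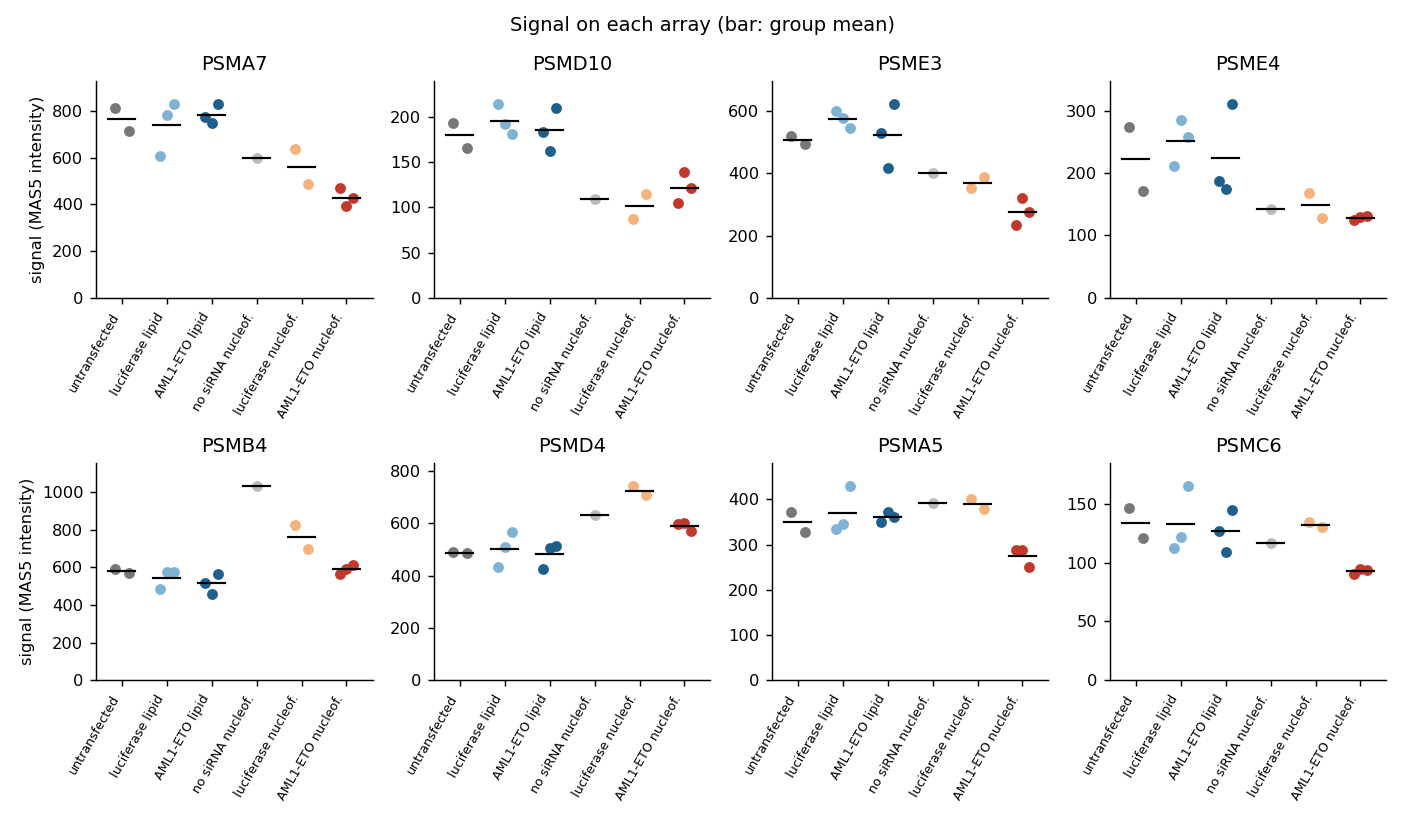
Signal (MAS5 intensity, linear axis from 0) of 8 members on each of the 14 arrays, with bars at group means. The group means of PSMA7, PSMD10, PSME3 and PSME4 are lower with nucleofection, those of PSMB4 and PSMD4 are higher there, and PSMA5 and PSMC6 are lowest on the 3 AML1-ETO nucleofection arrays.

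The name rule also took in PSMC3IP, a recombination factor named for binding PSMC3, and PSME3IP1, a protein named for binding PSME3, which are not proteasome subunits. PSME3IP1 read 30.1 and 5.65 on the luciferase nucleofection arrays and 65.9, 65.0 and 44.6 on the AML1-ETO nucleofection arrays, so that 1 control array was below the floor of 20. The lipid arrays gave 90.7, 78.8 and 79.0 with luciferase siRNA and 74.7, 106 and 89.7 with AML1-ETO siRNA. Untransfected cells gave 78.5 and 70.0 and the array without siRNA 41.0. All nucleofected arrays were below all lipid and untransfected arrays, and the luciferase nucleofection arrays were lowest. PSME3IP1 rose with AML1-ETO siRNA by nucleofection, by 1.23 (SE 0.23, adjusted p = 0.0155), and both this size and the call depend on the floor. The call as the mean of both methods, 0.67 (SE 0.15, adjusted p = 0.0478), was lost under 17 of 24 alternatives. It was kept among the single arrays left out only for the array without siRNA, luciferase nucleofection replicate 1 and AML1-ETO nucleofection replicate 3. By nucleofection the call was lost in 5 of 24 alternatives, including without luciferase nucleofection replicate 2 (0.94, adjusted p = 0.156) or AML1-ETO nucleofection replicate 1 (1.14, adjusted p = 0.0515).

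The transfection methods were set against each other as lipid minus nucleofection, each averaged over its siRNAs. Of the 40 members, 16 were called (40%, against 25.6% of all genes), 14 higher with lipid (22% of all genes were) and 2 lower (3.68% of all genes were). Among the 27 core and cap subunits 10 were higher and 2 lower, and the other calls were PSMD10, PSME3, PSME4 and PSME3IP1. The whole array moved the same way: the median of all genes was 0.17, 70.6% of genes were above 0, and the subunits' median was 0.20. In 12 members (30%) all lipid arrays were above all nucleofection arrays within each siRNA, against 16.1% of all genes, and in 1 (PSMD4, 2.5%) they were below, against 2.08%.

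Scaling bore on this comparison, since quantile normalization moved the median of all genes from 0.17 to 0.01 and median centring to −0.01. The subunits' median then was −0.04 and 0.03, moving with that of all genes. Its sign therefore flipped with quantile normalization, and it is not read as a direction of the subunits. Called members numbered 7 after quantile normalization (5 higher and 2 lower, 71.4% higher against 55.9% over all genes) and 9 after centring (7 higher and 2 lower, 77.8% against 53.9%). As deposited, 87.5% of the members' calls and 85.7% of all calls were higher. PSMA7, PSMD10, PSME3, PSME4 and PSME3IP1 remained called higher, and PSMD4 and PSMB4 lower, under both scalings. The GAPDH 3′ to 5′ ratio was −0.38 to −0.17 on the lipid arrays and −0.18 to 0.25 on the nucleofection arrays with siRNA. With this ratio as a covariate, 0 of 40 members and 17 of all genes (0.237%) were called. Without luciferase nucleofection replicate 1 the number of called members was 10.

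**Figure D5:**
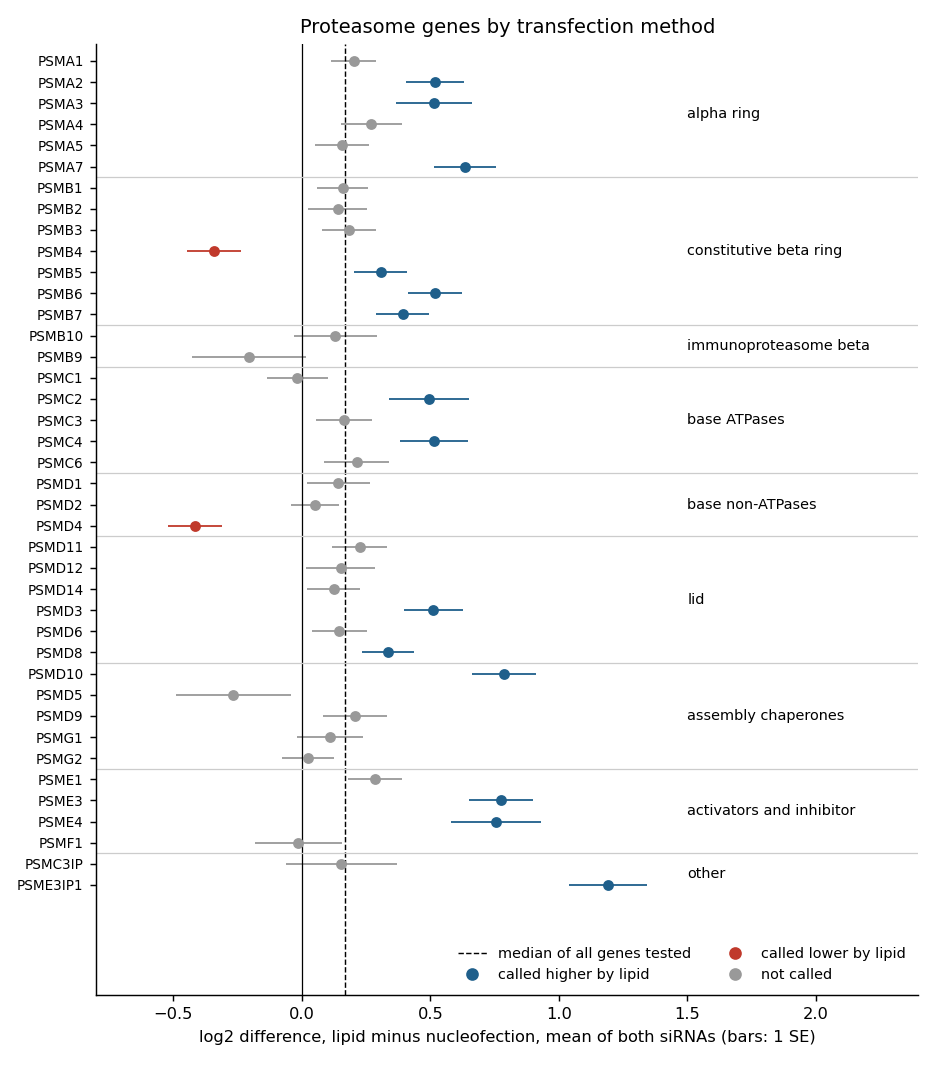
The x axis gives the log2 difference, lipid minus nucleofection as the mean of both siRNAs, of each of the 40 tested members with bars of 1 SE, in order of role. Blue points (14) were called higher, red points (2, PSMB4 and PSMD4) called lower, and the dashed line marks the median of all genes tested, 0.17.

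PSMD4 and PSMB4 were the 2 members lower with lipid, and were looked at further after their values were seen. PSMD4 read 741 and 708 on the luciferase nucleofection arrays and 598, 600.0 and 571 on the AML1-ETO nucleofection arrays. By lipid it read 432, 509 and 568 with luciferase siRNA and 425, 505 and 513 with AML1-ETO siRNA. Untransfected cells gave 491 and 486 and the array without siRNA 634. Every nucleofected array, the one without siRNA included, was above every lipid and untransfected array, and the difference was −0.42 (SE 0.10, adjusted p = 0.0129). PSMB4, a beta subunit without a protease site, read 823 and 697 on the luciferase nucleofection arrays and 562, 592 and 614 on the AML1-ETO nucleofection arrays. Its lipid signals were 485, 574 and 575 with luciferase siRNA and 518, 457 and 567 with AML1-ETO siRNA. Untransfected cells gave 592 and 571 and the array without siRNA 1029. The array without siRNA was the highest and the luciferase nucleofection arrays came next, while AML1-ETO nucleofection overlapped the lipid groups. The difference was −0.34 (SE 0.10, adjusted p = 0.0311). Its call was lost when the probe sets of a gene were averaged (−0.22, adjusted p = 0.144). Both genes lie on chromosome 1 with 4 protein-coding genes between them. Of these, 2 were tested, PI4KB (−0.07, adjusted p = 0.752) and RFX5 (0.12, adjusted p = 0.450), and neither was called.

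Each transfected group was set against untransfected cells. These comparisons share the 2 untransfected arrays, and the AML1-ETO and luciferase arrays are those of the comparisons above. By lipid no member was called with either siRNA, against 0% of all genes for the luciferase and 0.111% for the AML1-ETO siRNA. In both, limma gave 0 members an unadjusted p below 0.05, against 3.72% and 5.84% of all genes. With luciferase nucleofection 2 of 40 members (5%) were called, against 5.14% of all genes, and both fell, against 3.9% of all genes lower: PSMD10 at −0.83 (SE 0.20, adjusted p = 0.0347) and PSME3IP1 at −1.60 (SE 0.25, adjusted p = 0.00491). With AML1-ETO nucleofection 5 of 40 (12.5%) were called, against 8.15% of all genes, and all 5 fell, against 6.42% lower. They were PSME3 (−0.89, adjusted p = 0.0148), PSMA7 (−0.83, adjusted p = 0.0166), PSMB6 (−0.63, adjusted p = 0.0286), PSMA2 (−0.67, adjusted p = 0.0333) and PSMD3 (−0.66, adjusted p = 0.0358). With luciferase nucleofection the same 5 genes had differences of −0.46, −0.45, −0.39, −0.45 and −0.42, none of them called. The median of the 27 subunits was −0.39 with AML1-ETO nucleofection, against −0.17 over all genes, and −0.05 with luciferase nucleofection, against −0.06.

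The calls with AML1-ETO nucleofection rested on the untransfected arrays: leaving out either of them left 0 calls. Leaving out AML1-ETO nucleofection replicate 1, 2 or 3 left 1, 2 or 3. After quantile normalization none of the 5 was called and 1 other member was called higher, and the subunits' median was −0.08. After centring 2 were called lower and the median was −0.24. For luciferase nucleofection, quantile normalization gave 5 calls, 3 of them higher, and leaving out untransfected replicate 1 or adding the GAPDH ratio as a covariate gave 0. That luciferase count was 1 without untransfected replicate 3, luciferase lipid replicate 2, either luciferase nucleofection array or AML1-ETO lipid replicate 1.

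The members varied less within groups than all genes tested: the median within-group SD was 0.17 on the log2 scale, against 0.24. The median range of the group means was 0.52 against 0.63. Each core and cap subunit was brighter than at least 74.7% of genes on the array, and all genes were not matched for brightness. Whether the smaller spread is particular to the members was not tested. Of the members, 17 had more than 1 probe set, and these did not always run together. For lipid minus nucleofection, the chosen probe set of PSMB1 gave 0.16 and another 0.73. For PSMD4 the 3 probe sets above the filter gave −0.42, −0.39 and −0.16, and for PSMB4 the pair gave −0.34 and −0.10. The 4 probe sets of PSME3 gave 0.77, 0.54, 0.21 and 0.11, and the 3 of PSME4 gave 0.76, 0.80 and 0.40. For the mean knockdown effect, the sign differed between probe sets of PSMB2 (−0.18 and 0.21), PSMC2 (−0.14 and 0.47) and PSMD11 (−0.23 and 0.19).

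Genes that work with the proteasome were described from 3 lists. Of 19 tested partners and shuttles, none was called for the mean knockdown effect and 3 had an unadjusted p below 0.05 in limma, against 14.4% of all genes, which also applies to the lists that follow. By nucleofection 1 of 19 fell (5.26%, against 0.989% of all genes lower), VCP, the ATPase that extracts ubiquitin-tagged proteins, at −0.79 (SE 0.16, adjusted p = 0.023). The list's median there was −0.25, against −0.11 over all genes. With lipid relative to nucleofection 8 of 19 were higher (42.1%, against 22% of all genes) and 0 lower. They included VCP at 0.94 (SE 0.11, adjusted p = 0.000146) and SEM1, a small lid subunit, at 0.54 (SE 0.11, adjusted p = 0.00517). POMP, the maturation factor of the core, was among the 4 of 19 (21.1%, against 6.42% of all genes) lower with AML1-ETO nucleofection than untransfected, at −0.80 (SE 0.18, adjusted p = 0.0187). NFE2L1, the factor that induces proteasome genes, read 247 to 408 over the arrays and had a knockdown difference of −0.15 (adjusted p = 0.594).

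Of 8 tested genes for ubiquitin and its activation, none was called for the mean knockdown effect, with 3 at an unadjusted p below 0.05. All 8 were below 0 (median −0.28), while 35.1% of all genes were above 0 (median −0.07). By nucleofection 1 of the 8 fell (12.5%, against 0.989% of all genes lower), UBE2S, a ubiquitin-conjugating enzyme of mitosis, at −0.98 (SE 0.19, adjusted p = 0.0202). With lipid relative to nucleofection 2 of the 8 were called higher (22% of all genes were) and 1 lower (3.68% of all genes were). UBA1, the main ubiquitin-activating enzyme, was higher by 0.89 (SE 0.10, adjusted p = 0.000149). UBE2L6, an interferon-induced conjugating enzyme, was lower, at −0.46 (SE 0.12, adjusted p = 0.016). In the list of class I antigen presentation and the interferon gamma response, 10 of 12 tested genes were above 0 for the mean effect. This held for 35.1% of all genes, and the list's median was 0.19. Limma called none of the 12 and gave 4 an unadjusted p below 0.05. By nucleofection 1 of the 12 rose (8.33%, against 1.63% of all genes higher), the class I heavy chain HLA-B, by 0.76 (SE 0.16, adjusted p = 0.0319). With AML1-ETO nucleofection relative to untransfected cells, where 1.73% of all genes were called higher, HLA-B and HLA-C were higher, by 1.12 (SE 0.16, adjusted p = 0.00179) and 0.72 (SE 0.17, adjusted p = 0.0234). The immunoproteasome subunit PSMB9, which serves the same pathway, had a difference of −0.22 in that comparison and was not called.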

How the data were processed

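The authors deposited a linear-scale intensity for each probe set, which the submitters' processing notes credit to MAS5; its version is not given in the sources used here. The labels give 1 scale factor for each array, and the deposited intensities have equal means, so that changes common to most genes are lost. The number of arrays limits the precision. Gene names came from probe sets with 1 symbol in the platform annotation, and names could be old; updating through gene identifiers changed 0 of them.

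Intensities below 20 were raised to 20 (38.4% to 44.3% of probe sets on an array) and log2 was taken, so differences of dim genes are understated. The probe set with the highest mean stood for each gene, and the upper 60% of genes by mean (mean signal of at least 26.6) were tested in R 4.3.3 with limma 3.58.1. Its lmFit and eBayes steps estimated 6 group means from 14 arrays (8 residual and 4.65 prior degrees of freedom) and 9 comparisons. Adjusted p-values are Benjamini-Hochberg values from limma over the 7178 genes tested; intervals are 95% intervals from the same fit. The steps were tested on simulated data.

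Values on every array are given for the 6 catalytic subunits, the activators and the inhibitor, up to 8 called members with the smallest p in each of the knockdown and method comparisons, and the member of each role with the smallest p for the mean knockdown effect. Up to 3 genes are named for each list of other genes, beside NFE2L1, ADRM1 and genes said to be singled out later. The members, lists and markers were chosen with earlier results of these data known, and no list is independent support for a pattern. Not analysed here were untransfected replicate 2 and luciferase nucleofection replicate 3.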

Additional observations from a re-analysis of the deposited data

How the results depend on the processing

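No called member changed direction under any of the 24 alternatives, and the counts of called members by lipid knockdown, in the interaction and for either lipid group against untransfected cells were 0 under each. For the mean knockdown effect (1 call as reported), 0 were called with a floor of 64, without the filter, with every probe set, with only the arrays compared or with the GAPDH ratio as a covariate, and 0 to 1 when single arrays were left out. For the knockdown by nucleofection (1), 2 were called without the filter and with a variance trend and robust fit, 0 with only the arrays compared or the GAPDH covariate, and 0 to 1 without single arrays. For lipid against nucleofection (16), 7 were called with quantile normalization, 9 with centring, 0 with the GAPDH covariate, and 10 to 16 without single arrays. For luciferase nucleofection against untransfected cells (2), 5 were called with quantile normalization, 0 with only the arrays compared or the GAPDH covariate, and 0 to 2 without single arrays. For AML1-ETO nucleofection against untransfected cells (5), 1 was called with quantile normalization, 2 with centring, 10 with a floor of 64, 12 with a variance trend and robust fit, 0 with only the arrays compared, and 0 to 7 without single arrays. Fitting only the arrays compared leaves fewer arrays to estimate the spread; the cause of the other changes was not tested.

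Deviations of same-numbered arrays from their group means were not positively correlated throughout. In groups of 2 arrays these deviations are mirror images. The correlations therefore cannot show whether the replicate numbers pair the arrays. With the replicate block, 0 members were called for the mean knockdown effect, 12 for lipid against nucleofection, 1 for luciferase nucleofection and 2 for AML1-ETO nucleofection against untransfected cells. Members at or near the floor, PSMB8 and PSMB9 above all, are limited by signal over background.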
